A study of Mus musculus with 8 samples.

Results

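The pyruvate dehydrogenase system was followed through the 10 genes that encode its 4 kinases (Pdk1, Pdk2, Pdk3 and Pdk4), 4 subunits of the enzyme complex (Pdha1, Pdhb, Pdhx and Dlat) and the catalytic subunits of its 2 phosphatases (Pdp1 and Pdp2). The genes were picked by symbol, and all 10 were found among the 23284 gene symbols measured. The cells were bone marrow LSK cells (Lineage- Sca-1+ c-Kit+, the gate for blood stem cells and early progenitors), sorted from C57BL/6 male mice aged 12 to 13 weeks. Mice fasted overnight for more than 14 hours were injected intravenously for 7 days, and marrow from femurs and tibias was taken on day 8. The groups were glucose (2 g/kg, libraries A and B), glucose with lipid (glucose at 2 g/kg with a 20% lipid emulsion at 6 mL/kg, libraries H and I), and phosphate-buffered saline (PBS, libraries J and K, and libraries H and I). The labels name no transgene or deletion, all mice ate freely by day, and whether a library was 1 mouse or a pool is not stated, so p-values measure the spread between these libraries, which may be partly technical.

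The pyruvate dehydrogenase complex sits in the mitochondrial matrix and turns pyruvate, the end product of glycolysis, into acetyl-CoA for the citric acid cycle. The kinases phosphorylate its alpha subunit and switch the complex off, and the phosphatases switch it back on. In haematopoietic stem cells of the mouse, high kinase activity is known for holding pyruvate back from mitochondria and keeping the cells glycolytic, and Pdk2 and Pdk4 are the isoforms tied to that role. The labels give the study an interest in these kinases, since they describe mice that drank dichloroacetate, a kinase inhibitor, around the injections. None of the 8 libraries is labelled with dichloroacetate.

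Values were FPKM, fragments scaled for length and for the size of the library, and changes were tested on log2(FPKM + 1). Depth could only be estimated, at 5890000 to 8560000 fragments per library. PBS J and K were taken as controls of glucose and PBS H and I as controls of glucose with lipid, because the letters H and I are shared, which is an inference from names. Each of the 10 LSK markers, among them Kit and Ly6a (Sca-1), was above 0 in every library, with sums per library of 1567 to 2030 FPKM. The library of glucose with lipid H stood apart, with 64979 FPKM summed over the 9 neutrophil markers found of 10 (S100a8, S100a9 and others), against 161 FPKM in glucose with lipid I, 143 and 217 FPKM in the glucose libraries and 137 to 441 FPKM in the 4 PBS libraries. Its monocyte markers summed to 5143 FPKM, against 406 to 528 FPKM in the other 7 libraries, and its B and plasma cell markers to 201 FPKM against 43.7 to 74.9 FPKM. Mast cell and basophil markers summed to 321 and 81.3 FPKM in glucose with lipid, 79.2 and 81.8 FPKM in glucose, 185 and 184 FPKM in the PBS libraries H and I, and 113 and 73.1 FPKM in the PBS libraries J and K. Among them Cpa3 was at 96.2 and 93.2 FPKM in the PBS libraries H and I and 39.8 and 11.9 FPKM in the PBS libraries J and K (log2 fold change 2.06, adjusted p = 0.156 in limma). Erythroid markers (8 found of 9) summed to 1796 and 1134 FPKM in glucose with lipid, against 274 and 296 FPKM in glucose and 239 to 521 FPKM in PBS, with 1 marker at 0 in PBS K. The part of these transcripts in the results was not tested. Log2 fold changes of glucose with lipid are given also without library H for the 9 tested genes, Dld and the list medians. In such bulk samples fewer cells of a type and less RNA per cell cannot be told apart.

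The genes other than Pdk4 were expressed in LSK cells under every treatment, at levels that differed widely, and Pdk4 was nearly silent. By level, Pdk3 stood at 103 ± 10.3 FPKM (mean ± SD over 8 libraries), Pdhb at 88.8 ± 4.45, Pdha1 at 83.3 ± 4.48, Pdk1 at 42.8 ± 5.04, Dlat at 25.0 ± 2.49, Pdhx at 19.2 ± 2.19, Pdp1 at 14.9 ± 2.29, Pdk2 at 13.8 ± 4.36, Pdp2 at 9.22 ± 1.32 and Pdk4 at 0.386 ± 0.274 FPKM. In this order the ranges over libraries did not meet between Pdha1 and Pdk1, between Pdk1 and Dlat, or between Pdp2 and Pdk4, and every other pair of neighbours overlapped. Pdk3 lay at the 90.7th percentile of mean level among the 11931 genes tested and Pdha1 at the 88.0th. Pdhx lay at the 54.9th percentile, Pdp1 at the 48.4th, Pdk2 at the 46.4th and Pdp2 at the 36.6th. The genes tested had at least 1 FPKM in at least 2 libraries, which left 9 of the 10 genes and kept Pdk4 out.

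**Figure D1:**
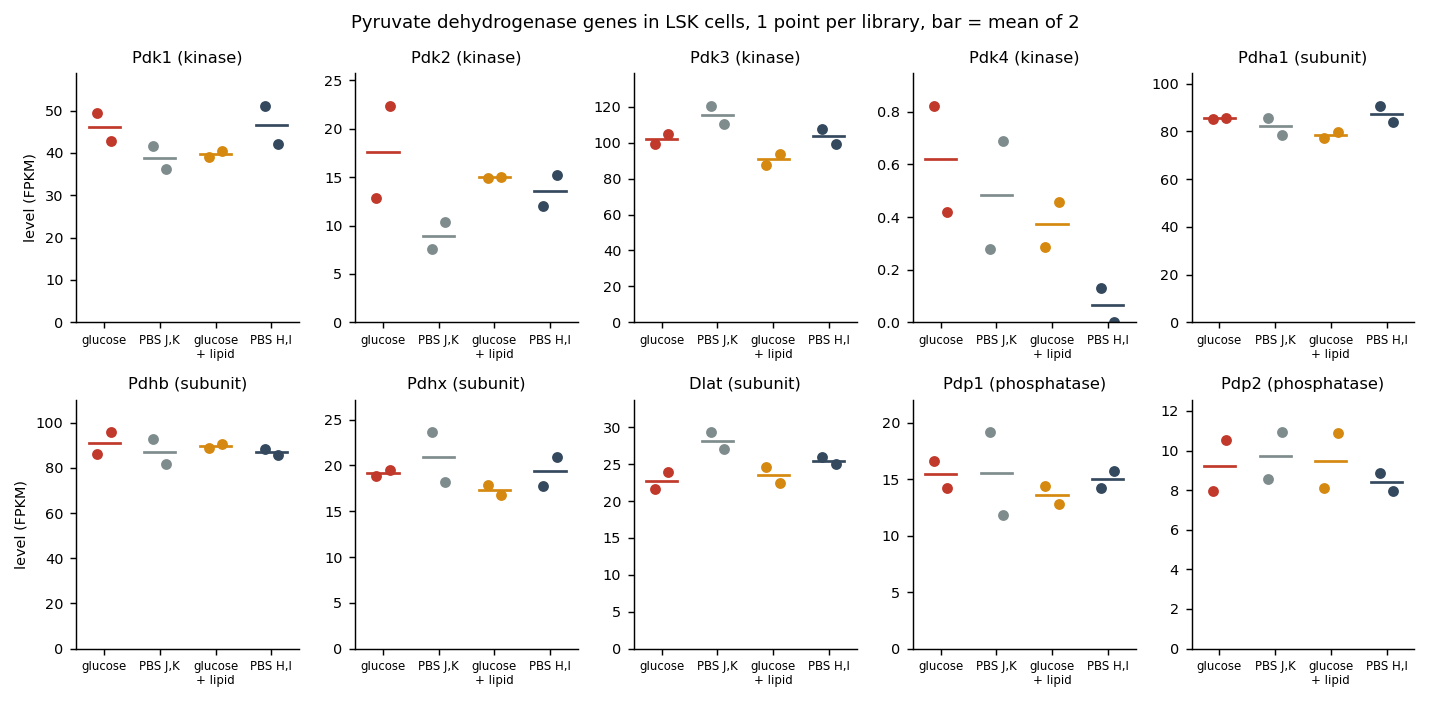
Level in FPKM (vertical axes, each from 0) of the 10 genes, with 1 point per library and a bar at the mean of 2 libraries in each of 4 groups. Most genes lie within a narrow band across groups, Pdk2 ranges from 7.62 to 22.4 FPKM and Pdk4 stays below 1 FPKM.

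Pdk1, the isoform known as a target of hypoxia-inducible factor, was at 49.3 and 42.8 FPKM in glucose A and B, and at 41.6 and 36.2 FPKM in the PBS libraries J and K. It was at 39.0 and 40.4 FPKM in glucose with lipid H and I, and at 51.1 and 42.0 FPKM in the PBS libraries H and I. Both glucose libraries thus lay above both of their controls, and both libraries of glucose with lipid lay below both of theirs. The log2 fold change was 0.24 (95% interval -0.08 to 0.56) for glucose and -0.22 (-0.54 to 0.10) for glucose with lipid, and neither passed in limma after Benjamini-Hochberg adjustment (adjusted p = 0.466 and 0.581). The 2 PBS pairs, which no treatment sets apart, differed by 0.25 (-0.07 to 0.57, H and I over J and K). Without glucose A the change with glucose was 0.14, and without PBS K it was also 0.14. With lipid it was -0.08 without PBS H and -0.36 without PBS I. With the PBS pairs exchanged the changes were -0.01 for glucose and 0.03 for glucose with lipid.

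Pdk2, a broadly expressed isoform, was at 12.9 and 22.4 FPKM in glucose A and B, and at 7.62 and 10.3 FPKM in the PBS libraries J and K. It was at 15.0 and 15.1 FPKM in glucose with lipid H and I, and at 12.0 and 15.2 FPKM in the PBS libraries H and I. The glucose libraries lay above PBS libraries J and K, but the spread within glucose was 6.72 FPKM (SD, n = 2) around a mean of 17.6 FPKM, and glucose A lay inside the range of PBS libraries H and I. The log2 fold change of glucose was 0.87 ± 0.26 (SE, 95% interval 0.26 to 1.48), the largest of the 9 genes in any treatment comparison by size, and it did not pass in limma (adjusted p = 0.237). Without glucose B it was 0.49, without glucose A 1.24, and against the other PBS pair 0.31, while the PBS pairs differed by 0.56 (-0.05 to 1.17, H and I over J and K). Glucose with lipid gave 0.14 (-0.47 to 0.75), and its effect minus that of glucose was -0.73 (-1.59 to 0.13, adjusted p = 0.467). Over all treated libraries Pdk2 had 0.50 (0.07 to 0.94, adjusted p = 0.318).

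Pdk3, known as the isoform least sensitive to dichloroacetate, was at 99.4 and 105 FPKM in glucose A and B, against 121 and 111 FPKM in the PBS libraries J and K. It was at 87.6 and 93.8 FPKM in glucose with lipid H and I, against 108 and 99.3 FPKM in the PBS libraries H and I. The treated libraries were lower than their own controls in both pairs without overlap, although the 4 treated and 4 PBS libraries did overlap as a whole. The log2 fold changes were -0.17 (-0.41 to 0.06) and -0.19 (-0.42 to 0.04) and did not pass in limma (adjusted p = 0.454 and 0.498). Over all treated libraries Pdk3 had -0.18 (-0.35 to -0.02, adjusted p = 0.329).

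Pdk4, which fasting, glucocorticoids and fatty acids are known to induce in muscle, heart and liver, was listed at 0.823 and 0.419 FPKM in glucose A and B, against 0.278 and 0.690 FPKM in the PBS libraries J and K. It was listed at 0.286 and 0.459 FPKM in glucose with lipid H and I, against 0.131 and 0 FPKM in the PBS libraries H and I. Glucose overlapped its controls and glucose with lipid lay above its own, as did 22.2% of the genes tested, a set that leaves out Pdk4. At the estimated depths and a transcript of 3484 bases these levels correspond to roughly 21.3 and 9.73 fragments in glucose, 5.86 and 13.7 in glucose with lipid, 5.91 and 14.6 in PBS libraries J and K, and 2.92 and 0 in PBS libraries H and I. Pdk4 was under the filter and so was left out of the test. In the fit without a filter its log2 fold change was 0.13 (-0.32 to 0.58) for glucose, 0.36 (-0.09 to 0.82) for glucose with lipid and -0.47 (-0.92 to -0.01) between the PBS pairs, and none passed in limma (adjusted p = 0.871, 0.644 and 0.402). The other 9 genes rested on at least 104 estimated fragments in every library.

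The 4 kinase genes lie apart, on GRCm38 (GENCODE vM21) at chromosome 2, 71873224 to 71903858 (Pdk1, plus strand), chromosome 11, 95026258 to 95041354 (Pdk2, minus), chromosome X, 93764607 to 93832201 (Pdk3, minus) and chromosome 6, 5483351 to 5496309 (Pdk4, minus). Their promoter windows, 250 bases before to 50 bases after a RefSeq start on GRCm38.p6, are shown because the 4 isoforms span from the most to the least abundant gene of the system. The windows are chr2:71872974-71873273, chr11:95041322-95041621, chrX:93832101-93832400 and chr6:5496229-5496528, on the strands above, and for Pdk1 and Pdk2 they are those at the outer of 2 annotated starts. Capitals mark matches on either strand to any of 5 motifs. These were the core of hypoxia factor sites, searched only as ACGTG, and the forkhead box O element, searched as GTAAACA. The form of the hypoxia factor core that starts with G, GCGTG, was not searched and is not marked. The nuclear receptor half-site was searched as AGGTCA and the box bound by Sp factors as GGGCGG. Last, the core promoter box that binds the basal machinery was searched as TATAAA.
Pdk1: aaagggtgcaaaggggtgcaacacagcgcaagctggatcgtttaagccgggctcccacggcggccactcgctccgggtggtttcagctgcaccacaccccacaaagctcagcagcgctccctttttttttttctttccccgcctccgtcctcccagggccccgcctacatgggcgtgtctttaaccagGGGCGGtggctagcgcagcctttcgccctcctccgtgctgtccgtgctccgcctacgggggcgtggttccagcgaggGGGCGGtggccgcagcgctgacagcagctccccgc
Pdk2: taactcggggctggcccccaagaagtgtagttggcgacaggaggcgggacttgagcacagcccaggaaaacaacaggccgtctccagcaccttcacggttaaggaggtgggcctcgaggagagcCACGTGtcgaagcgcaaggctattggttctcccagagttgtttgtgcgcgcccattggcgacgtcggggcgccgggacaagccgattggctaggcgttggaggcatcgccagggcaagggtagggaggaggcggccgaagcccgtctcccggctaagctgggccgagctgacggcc
Pdk3: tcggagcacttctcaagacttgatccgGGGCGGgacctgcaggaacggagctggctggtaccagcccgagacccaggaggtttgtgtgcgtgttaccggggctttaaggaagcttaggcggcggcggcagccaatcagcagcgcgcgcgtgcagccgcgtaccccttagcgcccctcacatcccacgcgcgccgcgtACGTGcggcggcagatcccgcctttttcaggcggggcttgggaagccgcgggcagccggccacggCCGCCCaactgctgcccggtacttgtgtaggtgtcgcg
Pdk4: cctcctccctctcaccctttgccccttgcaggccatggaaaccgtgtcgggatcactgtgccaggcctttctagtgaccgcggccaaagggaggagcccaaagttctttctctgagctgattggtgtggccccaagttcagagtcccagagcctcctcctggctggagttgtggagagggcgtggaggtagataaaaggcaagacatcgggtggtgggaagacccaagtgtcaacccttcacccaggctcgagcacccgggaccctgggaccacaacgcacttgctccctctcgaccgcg

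The windows held 25 CpG dinucleotides for Pdk1, 25 for Pdk2, 35 for Pdk3 and 12 for Pdk4, against a median of 7 over 32851 windows of the same length. Pdk1 and Pdk2 had equal CpG counts at mean levels of 42.8 and 13.8 FPKM. Sp boxes were found in the windows of Pdk1 (2) and Pdk3 (2) and in 35.7% of all windows. The hypoxia factor core as ACGTG was found in those of Pdk2 (2, 1 on each strand of a palindrome) and Pdk3 (1) and in 19.6% of all windows. Its form GCGTG was not counted, so a window without a mark may still hold a core. The forkhead, nuclear receptor and core promoter letters were in none of these 4 windows, and in 3.65%, 16.3% and 13.6% of all windows. A match is a description of the letters only.

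The share of Pdk3 in the kinase transcripts differed more between the PBS pairs than between treated cells and PBS H and I. Pdk3 made up 61.2% and 61.6% of the summed kinase FPKM in glucose A and B, against 70.9% and 70.1% in PBS libraries J and K. It made up 61.8% and 62.6% in glucose with lipid H and I, against 63.0% and 63.4% in PBS libraries H and I. PBS J and K thus held the highest Pdk3 shares and the lowest Pdk2 shares (4.48% and 6.53%, against 7.01% to 13.1% in the other 6 libraries). Pdk4 stayed at 0.507% or less of the sum in every library. The summed kinase level itself was 162 and 171 FPKM in glucose, 142 and 150 FPKM in glucose with lipid, 170.1 and 158 FPKM in the PBS libraries J and K, and 171 and 157 FPKM in the PBS libraries H and I, and glucose with lipid lay lowest. These shares and sums are descriptions and were not tested.

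**Figure D2:**
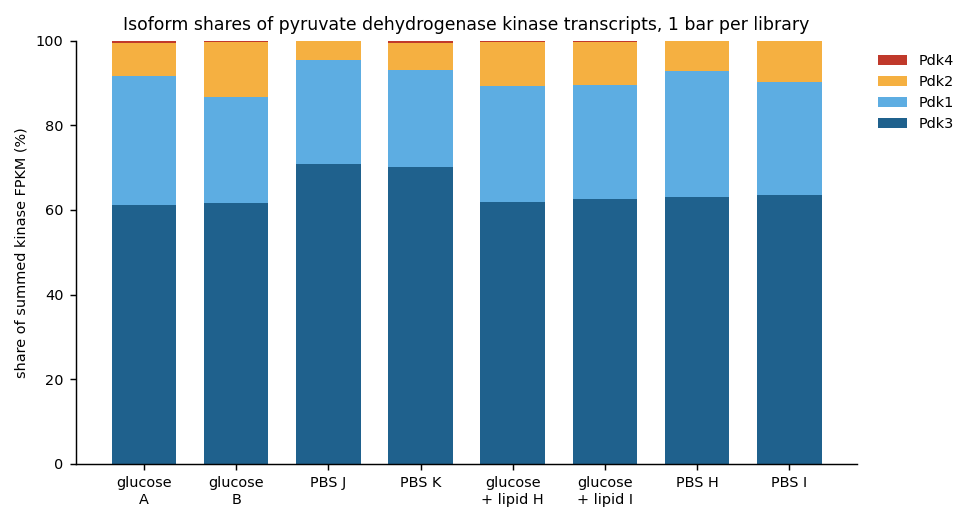
Share of the summed kinase FPKM in percent (vertical axis) taken by Pdk1, Pdk2, Pdk3 and Pdk4, with 1 stacked bar per library. Pdk3 takes 61.2% to 63.4% in 6 libraries and 70.1% to 70.9% in PBS libraries J and K.

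Among the subunits, Pdha1 and Pdhb, the alpha and beta chains of the E1 component that decarboxylates pyruvate, were the steadiest of the 10 genes. Pdha1 was at 85.3 and 85.6 FPKM in glucose A and B, against 85.5 and 78.5 FPKM in the PBS libraries J and K. It was at 77.3 and 79.9 FPKM in glucose with lipid H and I, against 90.7 and 83.9 FPKM in the PBS libraries H and I, where the groups did not overlap. Pdhb was at 86.3 and 95.9 FPKM in glucose A and B, against 93.0 and 81.6 FPKM in the PBS libraries J and K. It was at 88.7 and 90.8 FPKM in glucose with lipid H and I, against 88.5 and 85.9 FPKM in the PBS libraries H and I, higher without overlap by a narrow margin. Across the 8 libraries the coefficient of variation was 5.37% for Pdha1 and 5.01% for Pdhb, and the log2 fold changes of Pdha1 were 0.06 (-0.16 to 0.28) for glucose and -0.15 (-0.37 to 0.07) for glucose with lipid. The ratio of Pdha1 to Pdhb, chains that pair in equal number in the enzyme, was 0.988 and 0.892 in glucose, 0.871 and 0.880 in glucose with lipid, 0.920 and 0.963 in PBS libraries J and K, and 1.03 and 0.976 in PBS libraries H and I. Pdha1 lies on chromosome X at 160122209 to 160138413 and Pdhb on chromosome 14 at 8165996 to 8173025.

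Dlat, the E2 core that carries the lipoyl arms and makes acetyl-CoA, was at 21.6 and 23.9 FPKM in glucose A and B, against 29.4 and 27.1 FPKM in the PBS libraries J and K. It was at 24.7 and 22.5 FPKM in glucose with lipid H and I, against 26.0 and 25.0 FPKM in the PBS libraries H and I. All 4 treated libraries lay below all 4 PBS libraries, which was so in the lower direction for 2.84% of the genes tested, and Dlat was the only gene of the 9 with that separation. The gap was narrow: the highest treated library stood at 24.7 FPKM and the lowest PBS library at 25.0 FPKM. With all treated set against all PBS libraries and the control pair as a block, the log2 fold change was -0.20 ± 0.09 (SE, 95% interval -0.40 to -0.00495) and did not pass in limma (adjusted p = 0.352), with means of 23.2 ± 1.39 FPKM in treated and 26.9 ± 1.87 FPKM in PBS cells (SD, n = 4 each). For glucose alone it was -0.30 (-0.58 to -0.02, adjusted p = 0.316) and for glucose with lipid -0.11 (-0.39 to 0.17, adjusted p = 0.769). Dlat lies on chromosome 9 at 50634633 to 50659780.

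Pdhx, the binding protein that docks the E3 component on the core, was at 18.8 and 19.5 FPKM in glucose A and B, against 23.7 and 18.2 FPKM in the PBS libraries J and K. It was at 17.8 and 16.8 FPKM in glucose with lipid H and I, against 17.8 and 20.9 FPKM in the PBS libraries H and I. Both pairs of groups overlapped. The log2 fold changes were -0.11 (-0.48 to 0.25) and -0.15 (-0.52 to 0.22). For glucose it was 0.07 without PBS J and -0.29 without PBS K. Pdhx lies on chromosome 2 at 103021075 to 103073513.

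Pdp1, the calcium-stimulated phosphatase, was at 16.6 and 14.2 FPKM in glucose A and B, against 19.2 and 11.9 FPKM in the PBS libraries J and K. It was at 14.4 and 12.8 FPKM in glucose with lipid H and I, against 14.2 and 15.7 FPKM in the PBS libraries H and I. The groups overlapped in both pairs, with PBS libraries J and K themselves spanning the other 6 libraries. Pdp2, the isoform known for its response to insulin, was at 7.97 and 10.5 FPKM in glucose A and B, against 8.55 and 10.9 FPKM in the PBS libraries J and K. It was at 8.12 and 10.9 FPKM in glucose with lipid H and I, against 8.87 and 7.94 FPKM in the PBS libraries H and I, and these groups overlapped as well. For both phosphatases the 95% intervals of glucose and of glucose with lipid reached from -0.64 to 0.64 on the log2 scale at the widest. Pdp1 lies on chromosome 4 at 11958184 to 11966452 and Pdp2 on chromosome 8 at 104591451 to 104599026. Kinase transcripts outweighed phosphatase transcripts by 6.60 and 6.91 times in glucose, 6.30 and 6.34 times in glucose with lipid, 6.14 and 6.93 times in PBS libraries J and K, and 7.41 and 6.62 times in PBS libraries H and I. Glucose overlapped its controls, and glucose with lipid lay below PBS H and I but inside the range of PBS J and K. These ratios were not tested.

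The comparisons across all genes ask whether repeated glucose, with or without lipid, changed this system in LSK cells. After glucose, 0 of the 9 tested genes were called at an adjusted p under 0.05 in limma, against 0.101% of the 11931 genes tested (12 genes). After glucose with lipid 0 of 9 were called, against 0.0754% of all genes (9 genes). For all treated against all PBS libraries 0 of 9 were called, against 0.327% (39 genes), for the effect of glucose with lipid minus the effect of glucose 0 of 9, against 0.0168% (2 genes), and between the PBS pairs 0 of 9, against 0.0503% (6 genes). At an unadjusted p under 0.05 the counts of the 9 were 2 for glucose (Pdk2 and Dlat), 0 for glucose with lipid, 3 for all treated (Pdk2, Pdk3 and Dlat), 1 for the difference of effects (Pdk1) and 0 between PBS pairs, where 14.9%, 11.8%, 13.8%, 12.2% and 17.2% of all genes had such a p, in the same order. With so few genes called among all tested, 0 of 9 is what the background share would give and does not show that the genes did not change.

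**Figure D3:**
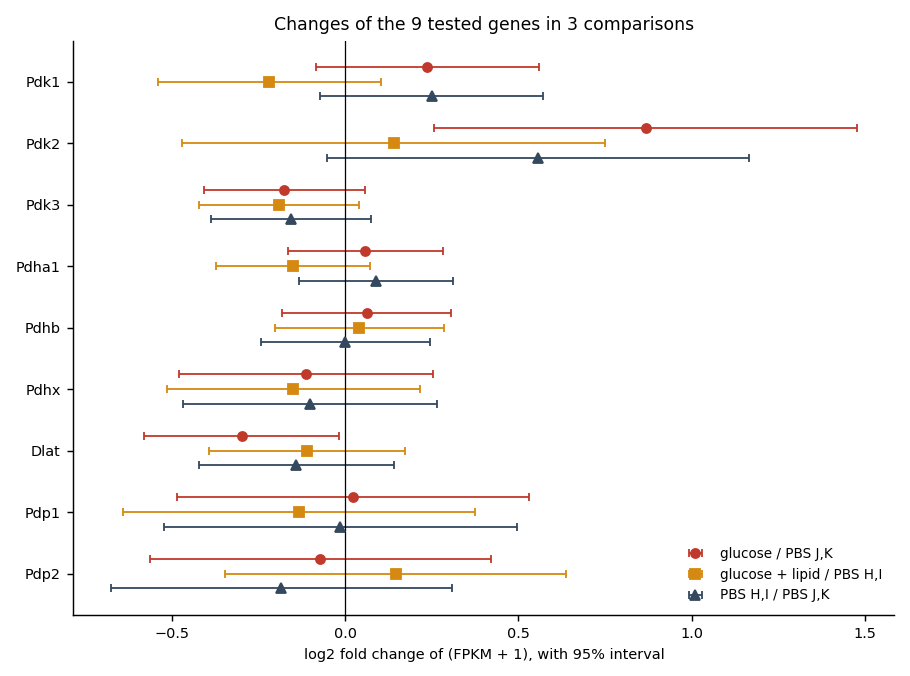
Log2 fold change of FPKM + 1 (horizontal axis) with its 95% interval from limma for the 9 tested genes, in glucose over PBS J and K, glucose with lipid over PBS H and I, and PBS H and I over PBS J and K. The interval of Pdk2 in glucose, 0.26 to 1.48, and that of Dlat in glucose, -0.58 to -0.02, leave out 0 before adjustment, and all others reach across it.

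Separation of the groups was common among all genes. In glucose, 2 of 9 genes lay wholly below their controls (Pdk3 and Dlat), against 24.8% of all genes, and 2 wholly above (Pdk1 and Pdk2), against 22.3%. In glucose with lipid 4 lay wholly below (Pdk1, Pdk3, Pdha1 and Dlat), against 21.8%, and 1 wholly above (Pdhb), against 22.2%. Pdk3 and Dlat were lower in both pairs, which held for 4.98% of all genes, and 0 of 9 were higher in both, against 5.89%. Pdk1 separated in opposite directions, as did 10.1% of all genes, and was higher with glucose and lower with glucose with lipid, as were 4.9%. No gene of the 9 had all 4 treated above all 4 PBS libraries, against 3.55% of all genes. PBS H and I also separated from PBS J and K for Pdk3 and Dlat (lower, against 25.3% of all genes) and for Pdk1 and Pdk2 (higher, against 24.4%). These are the genes that separated in glucose, and both comparisons share PBS J and K. Their log2 fold changes in glucose were 0.24, 0.87, -0.17 and -0.30 for Pdk1, Pdk2, Pdk3 and Dlat, and in PBS libraries H and I 0.25, 0.56, -0.16 and -0.14, each relative to PBS J and K.

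Without the library of glucose with lipid H, which held the neutrophil transcripts, the log2 fold changes of glucose with lipid were -0.19 for Pdk1, 0.14 for Pdk2, -0.14 for Pdk3, -0.13 for Pdha1 and -0.17 for Dlat, and 0 of 9 genes were called. With both libraries they were -0.22, 0.14, -0.19, -0.15 and -0.11. Those of Pdhb, Pdhx, Pdp1 and Pdp2 were 0.06, -0.19, -0.21 and 0.34 without library H and 0.04, -0.15, -0.13 and 0.15 with both. The list medians without library H were -0.08 for the complex and its cofactors, -0.15 for pyruvate fate, -0.04 for the sister complexes, 0.16 for the transcription factors and 0.22 for the PPAR-induced genes, and Dld had -0.59. The medians of the pyruvate fate and sister complex lists lie at -0.01 and 0.04 with both libraries. Glucose with lipid I alone lay below both PBS H and I for Pdk1, Pdk3, Pdha1 and Dlat. For these genes that follows from the separation of both libraries, so it adds no support. Library I also lay below both for Pdhx and Pdp1, and the share of all genes for which it did was not computed. The lone library left in the group was assumed to vary like the other groups.

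As a set the 9 tested genes varied less than most genes, in a comparison not matched for level. Pdk3, Pdhb, Pdha1, Pdk1 and Dlat lay at the 62.1st to 90.7th percentile of mean level. Whether the 9 genes varied less than genes of like level was not tested. Their median SD of log2(FPKM + 1) over the 8 libraries was 0.149, against 0.213 over all genes tested, and 8 of the 9 lay below that value. Pdk2 was the exception, at 0.424, with 2.94 times between its highest and lowest library. Among genes within 1 log2 unit of its mean level 8.03% had an SD as large. The genes whose centred profiles lay nearest to Pdk2 over the 8 libraries were Islr, Tifa, Il6ra and Alcam, with root mean square differences of 0.122, 0.130, 0.140 and 0.145 log2 units among 9034 genes of at least 3 FPKM. Tifa, for instance, was at 16.6 and 24.1 FPKM in glucose A and B, 22.1 and 18.9 FPKM in glucose with lipid H and I, 10.7 and 13.4 FPKM in the PBS libraries J and K, and 17.5 and 18.5 FPKM in the PBS libraries H and I. For Pdk4 they were Fkbpl, Rab23, Tmem42 and Zfp963 (0.0851 to 0.124), read beside the few fragments of Pdk4.

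Genes around the system were followed in 5 lists, and no gene of them was called. Of all genes tested 0.101% were called for glucose, 0.0754% for glucose with lipid and 0.327% for all treated. The absence of calls in the lists is what these shares would give and does not show that the genes did not change. The other genes of the complex and its cofactors comprised Dld, the E3 dehydrogenase, Pdpr, the regulatory phosphatase subunit, and genes of lipoate and thiamine handling. Of these 13, none was called in any comparison, with medians of -0.16 for glucose and -0.10 for glucose with lipid, against -0.00014 and 0.01 over all genes. Dld was at 78.8 and 64.5 FPKM in glucose A and B, against 76.3 and 74.1 FPKM in the PBS libraries J and K. It was at 70.2 and 63.7 FPKM in glucose with lipid H and I, against 95.5 and 96.5 FPKM in the PBS libraries H and I. Its log2 fold change with lipid of -0.52 did not pass in limma (adjusted p = 0.230), and PBS H and I themselves stood 0.35 above PBS libraries J and K. The lipoate synthesis cofactor gene Ndufab1, an acyl carrier protein, had the largest log2 fold change over all treated libraries at -0.38. It was at 31.0 FPKM in PBS J against 13.8 to 19.3 FPKM in the other 7 libraries, and without PBS J the value was -0.19. The iron-sulphur genes Glrx5 and Bola3 were the most abundant, at 141 and 114 FPKM on average.

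Genes that set the fate of pyruvate numbered 13, with the carrier genes Mpc1 and Mpc2 listed under older symbols, and 0 were called higher or lower in limma. For glucose 12 of 13 lay below 0 with a median of -0.26, among them Ldha, which makes lactate, at 808 and 761 FPKM in glucose A and B against 1298 and 974 FPKM in the PBS libraries J and K (log2 fold change -0.52, adjusted p = 0.230). PBS H and I, at 813 and 733 FPKM, differed from PBS J and K by -0.54. Between PBS pairs 9 of the 13 genes lay below 0 with a median of -0.15, and that comparison shares PBS J and K with glucose. With lipid 7 of 13 lay below 0 with a median of -0.01, and Ldha was at 824 and 694 FPKM in glucose with lipid H and I. The medians over all genes tested were -0.00014 for glucose, 0.000365 between PBS pairs and 0.01 with lipid. The next most abundant was Pkm, pyruvate kinase, at 425 FPKM on average, and the largest log2 fold changes over all treated libraries were those of Slc16a1, a monocarboxylate transporter (-0.40), and Me2, a malic enzyme (-0.32). Without PBS J the log2 fold change of Ldha in glucose was -0.31 and the list's median -0.16, and without PBS K the median was -0.44. Without glucose with lipid I the values of Slc16a1 and Me2 over all treated libraries were -0.22 and -0.19, and that of Slc16a1 was -0.25 without PBS J.

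The sister complexes that act on other ketoacids, with their own kinase Bckdk and phosphatase Ppm1k, had 7 of 9 genes tested and 0 called, with medians of -0.13 for glucose and 0.04 for glucose with lipid. Bckdk averaged 84.3 FPKM and Dlst 81.4 FPKM, and the largest log2 fold changes over all treated libraries were those of Bckdha (0.25) and Ogdh (-0.20). Both were far off in PBS J, with Bckdha at 23.1 FPKM there against 33.4 to 44.1 FPKM in the other 7 libraries and Ogdh at 78.2 FPKM against 51.7 to 62.9 FPKM, and without PBS J the values were 0.12 and -0.09. Among transcription factors known to act on Pdk genes 11 of 15 were tested and 0 called, with medians of 0.06 and 0.14. Myc averaged 272 FPKM and Hif1a 26.1 FPKM, while Ppara, the fatty acid sensor that induces Pdk4 in liver, was listed at 0 to 0.04 FPKM and Ppard averaged 0.43 FPKM, both under the filter. Pparg had the largest log2 fold change over all treated libraries (0.50), with 4.16 FPKM in glucose with lipid H against 1.02 FPKM in glucose with lipid I, followed by Foxo4 (0.35), with 1.87 FPKM in glucose with lipid I against 0.36 to 1.0 FPKM in the other 7 libraries. Without glucose with lipid H the value of Pparg was 0.16, and without glucose with lipid I that of Foxo4 was 0.21. Of genes that PPAR factors induce in other tissues 10 of 12 were tested and 0 called, with medians of 0.08 and 0.14. Ucp2 and Acadl were the most abundant at 145 and 135 FPKM, and Cd36, a fatty acid transporter, had the largest log2 fold change over all treated libraries (0.89), with 4.70 FPKM in glucose with lipid H against 0.63 FPKM in glucose with lipid I. Without glucose with lipid H the value of Cd36 was 0.44. Angptl4, a lipase inhibitor, came next (-0.38). It was at 18.2 and 17.3 FPKM in glucose A and B against 27.7 and 25.0 FPKM in the PBS libraries J and K, and at 15.7 and 14.7 FPKM in the PBS libraries H and I. The part of the neutrophil transcripts of glucose with lipid H in the values of Pparg and Cd36 was not tested.

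**Figure D4:**
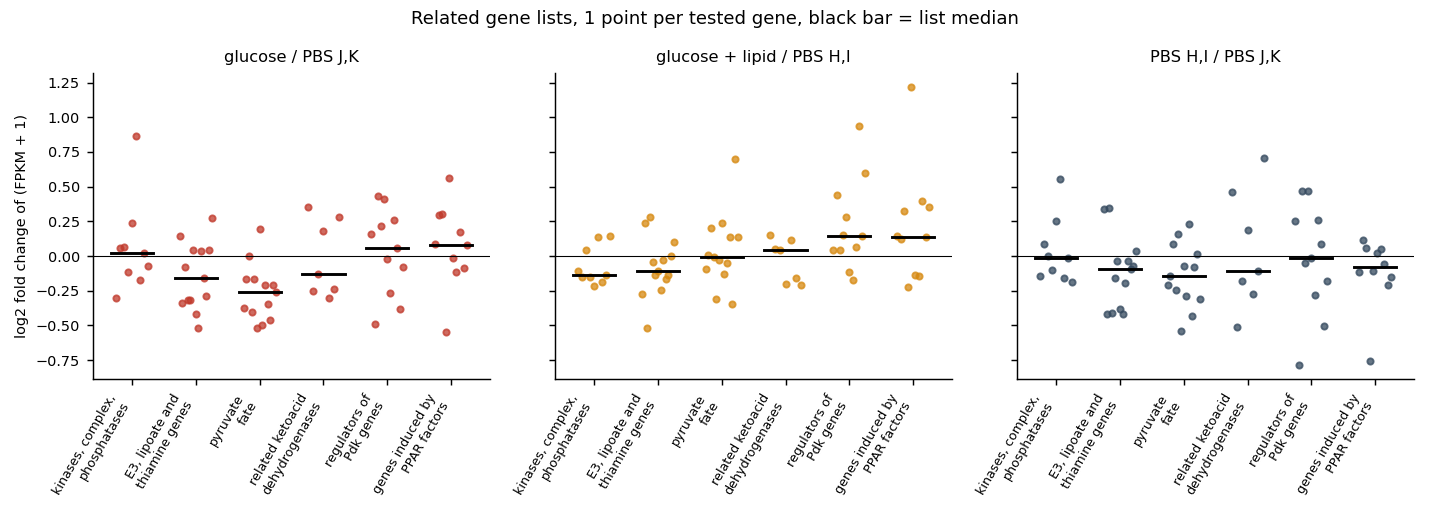
Log2 fold change of FPKM + 1 (vertical axis) of each tested gene in 6 lists, with black bars at list medians, for glucose over PBS J and K, glucose with lipid over PBS H and I, and PBS H and I over PBS J and K. No gene of these lists passed the test in any of them, and the pyruvate fate list has its lowest median, -0.26, in glucose.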

How the data were processed

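RNA from about 10000 sorted cells per library was made into cDNA with SMART-Seq HT and Nextera XT libraries, per the labels. The authors deposited FPKM values, 1 per gene symbol and library, for which Cuffnorm 2.2.1, TopHat2 2.0.13 (with Bowtie2 2.2.3) and SAMtools 1.0 are named, with build mm10, per the submitters' processing notes. The unit was read from the values and the tool, since headers do not state it. The annotation is not given in the sources used here.

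Values were fitted as log2(FPKM + 1) in limma 3.58.1 (R 4.3.3) with a mean-variance trend, all 8 libraries in 1 fit, over the 11931 genes reaching 1 FPKM in 2 or more libraries, and adjusted by Benjamini-Hochberg over all of them at 0.05. There were 4 residual and 3.73 prior degrees of freedom. The labels call the libraries biological replicates. P-values are 2-sided. The procedure was run on simulated data with normal noise of the fitted spread and planted changes. These held no library with added neutrophil transcripts and no shift between PBS pairs, so they do not test the fit under those conditions. Depth was estimated in genes with a single GENCODE transcript of 1500 to 6000 bases, from FPKM times length in kilobases. Values between 0.08 and 0.2 were taken as 1 fragment, and their median gave the depth. These bounds limit the depths that could be found, and no counting interval was computed. Promoter sequences are from RefSeq (GRCm38.p6), which held windows for 9 of the 10 genes.

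The genes and lists were chosen with earlier results of these data known. All 10 genes were named, and from each list the 2 most abundant genes and the 2 with the largest change over all treated libraries, since none was called. Ldha, Dld and other list genes given per library, Ppara and Ppard were picked for their values or role afterwards. Alternatives were other pseudocounts, filters, scalings, controls, fits and omission of each library. Figures were drawn with matplotlib 3.10.9 and tables made with pandas 2.3.3 in Python 3.11.15.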

Additional observations from a re-analysis of the deposited data

Results flagged for a closer look

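Pdk1 separated in opposite directions from the PBS pairs assigned to the treatments by letter. Both glucose libraries (49.3 and 42.8 FPKM) lay above PBS libraries J and K (41.6 and 36.2 FPKM). Both libraries of glucose with lipid (39.0 and 40.4 FPKM) lay below PBS libraries H and I (51.1 and 42.0 FPKM). The effect with lipid minus the effect of glucose was -0.46 on the log2 scale (95% interval -0.91 to -0.00101) and did not pass in limma (adjusted p = 0.408). Such opposite separation was seen in 10.1% of all genes tested. With the PBS pairs exchanged the difference was 0.04.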

How the results depend on the processing

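None of the 9 tested genes was called under any alternative that could be run, 19 each for glucose and for glucose with lipid, 18 for the difference of effects, 16 for all treated and 17 between PBS pairs. The smallest adjusted p in limma was 0.166, for Pdk3 in glucose with lipid against PBS J and K (log2 fold change -0.35). Of 801 recomputed values of these genes 65 moved by more than the spread between replicates. Rescaling without microRNA genes shifted the median of all genes by 0.10 in glucose, -0.14 in glucose with lipid, 0.14 between PBS pairs and -0.22 for the difference of effects, and gave Pdk1 0.34 in glucose and -0.38 with lipid, Pdk2 1.0 and -0.01, and Pdk3 -0.07 and -0.35. With single libraries left out, the log2 fold changes in glucose spanned 0.14 to 0.34 for Pdk1, 0.49 to 1.24 for Pdk2, -0.24 to -0.11 for Pdk3, -0.37 to -0.23 for Dlat, -0.29 to 0.07 for Pdhx, -0.30 to 0.35 for Pdp1 and -0.25 to 0.11 for Pdp2. In glucose with lipid they spanned -0.36 to -0.08 for Pdk1, -0.02 to 0.30 for Pdk2, -0.25 to -0.13 for Pdk3, -0.17 to -0.05 for Dlat, -0.26 to -0.04 for Pdhx, -0.21 to -0.05 for Pdp1 and -0.04 to 0.34 for Pdp2. Leaving out libraries for the gene lists was chosen after seeing the data. Counts over all genes ranged from 8 to 32 for glucose (12 as reported), 3 to 271 for glucose with lipid (9), 0 to 141 for the difference of effects (2), 14 to 239 for all treated (39) and 2 to 17 between PBS pairs (6). The highest counts of 271, 141 and 239 were those without glucose with lipid I, which left the library with neutrophil transcripts alone in its group. The lowest, 8, 3, 0, 14 and 2, came without the variance trend (also without PBS J), without a filter (also without PBS H), with 3 FPKM asked in 4 libraries, without glucose B and without a filter.

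Glucose with lipid and PBS both have libraries lettered H and I, and these were not taken as pairs in the reported fit. Deviations of same-lettered libraries correlated at 0.0660 over genes. That value cannot decide whether the letters mark pairs, because glucose with lipid H held the neutrophil transcripts and enters the deviations. With the letters as a replicate block 0 of 9 genes were called, against 0 without the block, and 11 genes in all were called for glucose with lipid. With 2 libraries a group the intervals were wide, for Pdk2 -1.59 to 0.13 in the difference of effects, and Pdk4 rested on few fragments.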
